A study of Mus musculus with 3 samples.

Results

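The genes described here are the transcription factors that drive epithelial-mesenchymal transition, the cadherins they switch between, and the filament protein vimentin, as transcribed in lung mesenchymal stromal cells (LMSCs). They were chosen by symbol: Snai1, Snai2, Twist1, Twist2, Zeb1, Zeb2, Prrx1, Cdh1, Cdh2 and Vim, 10 of 34742 genes. All 10 were in the table, and each reached 1 CPM (defined below) in at least 1 library. The study cultured these cells from lungs of mice with the MMTV-PyMT transgene, in which a mammary promoter drives the polyoma middle T oncogene and mammary tumours seed the lung. Total RNA was sequenced from A-LMSC (adenoma stage, 7 weeks of age), PM-LMSC (pre-metastatic stage, 11 weeks) and M-LMSC (metastatic stage, 13 weeks), with 1 library for each stage. Further libraries that the study describes for these stages were not analysed here. Every library carried the transgene background, so tumour stage and age moved together, and no library without the transgene was analysed here. The cells were adherent, depleted of CD45+ leukocytes with magnetic beads and expanded through passages. They are therefore adherent cells of a whole-lung digest, and CD45 was the only marker by which cells were removed. The study also typed the expanded cells by surface markers. From these it proposes that the preparations held few or no breast cancer or lung epithelial cells.

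In epithelial-mesenchymal transition, epithelial cells let go of their neighbours and take on a migratory form. SNAIL, SLUG, ZEB and TWIST proteins bind E-box motifs and repress E-cadherin (Cdh1), the calcium-dependent adhesion molecule of epithelial junctions, while N-cadherin (Cdh2) and vimentin (Vim) mark the mesenchymal state. Stromal cells such as fibroblasts are mesenchymal by lineage, so they normally hold these factors without E-cadherin. The comparisons ask how these genes stood in LMSCs as the tumour advanced.

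The libraries held 13479898, 12594155 and 14338909 counts in A-, PM- and M-LMSC, and a floor of 3 counts lay between 0.174 and 0.272 CPM. CPM here are counts for each 1000000 of the library total, after TMM scaling, a correction for differing composition. A log2 ratio compares log2(CPM + 1) between 2 libraries, and a gene was called from a 2-fold ratio upward, given 1 CPM in its higher library. With 1 library per stage there is no replicate check and no test was run. The 95% intervals are exact, cover counting error only, and belong to CPM or folds without the added 1. All 5 surface marker genes of the study (Itgb1, Cd44, Pdgfra, Nes and Ly6a) reached at least 8.88 CPM in every library, but their levels differed. They summed to 197, 3362 and 2889 CPM in A-, PM- and M-LMSC. Against A-LMSC, 4 of the 5 were called higher in PM-LMSC and all 5 in M-LMSC, beside 35.0% and 41.0% of all measured genes. Ptprc, which encodes CD45, had 0, 3 and 9 counts in A-, PM- and M-LMSC. The 6 leukocyte markers summed to 30.3, 52.2 and 24.9 CPM, nearly all from the macrophage genes Csf1r, Cd68 and Adgre1, of which Adgre1 had 0, 146 and 86 counts, while the T cell gene Cd3e was at 0 in every library. The libraries also differed in base composition: over protein-coding genes the log2 ratio fell with transcript GC content, at a Spearman rho of -0.63 in PM-LMSC versus A-LMSC, -0.71 in M-LMSC versus A-LMSC and -0.39 in M-LMSC versus PM-LMSC. Ratios after removal of this trend and of a trend with transcript length are given as trend-removed ratios wherever they end a call or turn a direction of the 10 genes, and, for genes of other lists given with their values, where they end a call in M-LMSC versus A-LMSC. By trend-removed ratios, 3 of the 5 surface marker genes were called higher in each comparison with A-LMSC, beside 18.9% of all genes.

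The 10 genes did not move as a block. In PM-LMSC versus A-LMSC, 5 were called higher (Snai2, Zeb1, Prrx1, Cdh1 and Cdh2), where 35.0% of 12727 measured genes were, and 1 was called lower (Twist2), where 25.0% were. Their median log2 ratio was 1.34, beside 0.19 over all measured genes. In M-LMSC versus A-LMSC, 6 were called higher (the same 5 and Zeb2), beside 41.0% of 13223 genes, and 3 were called lower (Snai1, Twist1 and Twist2), beside 27.7%. The median was 2.07, beside 0.34 over all genes. In M-LMSC versus PM-LMSC, 3 were called higher (Zeb1, Zeb2 and Cdh1), beside 17.3% of 13181 genes, and 2 were called lower (Snai1 and Vim), beside 7.85%. Here the median was -0.0044, beside 0.03. With the trend removed, the medians of the 10 genes were 0.435 in PM-LMSC versus A-LMSC, 0.39 in M-LMSC versus A-LMSC and 0.14 in M-LMSC versus PM-LMSC. Without trend removal, the shares called are not far from those of all genes in the comparisons with A-LMSC, which share that library. With the trend removed, 5 of the 10 were called higher and 2 lower in PM-LMSC versus A-LMSC, beside 18.9% and 17.1% of all genes. In M-LMSC versus A-LMSC 4 were then higher and 3 lower, beside 18.9% and 18.8%. Counted on deposited FPKM, with 1 FPKM as the minimum and 1 FPKM added, 4 of 8 measured were higher and 1 lower in PM-LMSC versus A-LMSC (32.5% and 16.1% of all measured genes), 6 and 2 of 10 with M-LMSC over A-LMSC (41.1% and 12.2%), and 4 and 2 of 10 with M-LMSC over PM-LMSC (14.3% and 3.69%).

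**Figure D1:**
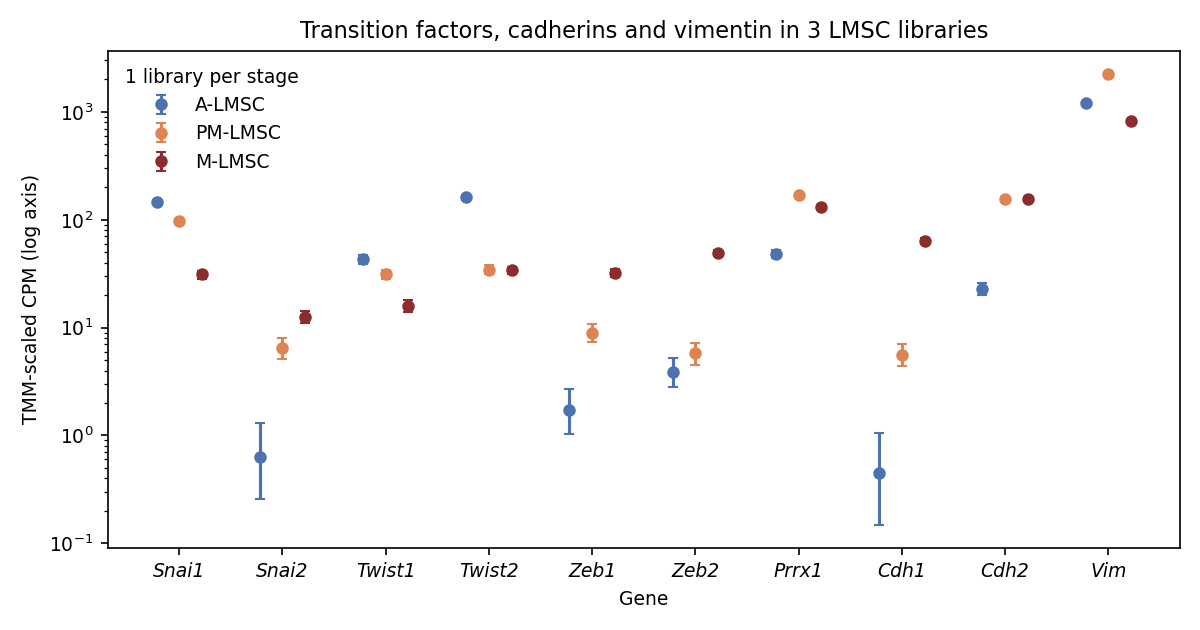
TMM-scaled CPM of the 10 genes on a log axis, with a point for each library (A-, PM- and M-LMSC, 1 library per stage) and bars for exact 95% Poisson intervals of the count. Cdh1, Snai2, Zeb1 and Zeb2 sat lowest in A-LMSC and highest in M-LMSC, while Snai1 and Twist1 ran the other way.

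Snai1 (ENSMUSG00000042821, chromosome 2, 167538195 to 167542814 on mm10) encodes SNAIL, a zinc finger repressor of E-cadherin. It had 1617, 1238 and 536 counts in A-, PM- and M-LMSC, or 147 CPM (interval 140 to 154), 96.7 CPM (91.4 to 102) and 31.1 CPM (28.5 to 33.8). Each step was downward and no intervals overlapped. M-LMSC stood 4.71-fold lower than A-LMSC (4.27 to 5.21) and 3.11-fold lower than PM-LMSC (2.81 to 3.45), with log2 ratios of -2.20 and -1.61. Snai1 lies among the most GC-rich transcripts, at 59.8% GC, and its trend-removed ratio was -0.49 in M-LMSC versus A-LMSC, under the 2-fold mark, and 1.04 in PM-LMSC versus A-LMSC, where the plain ratio was -0.59. Between M-LMSC and PM-LMSC, the trend-removed ratio was -1.59.

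Snai2 (ENSMUSG00000022676, chromosome 16, 14705852 to 14709395) encodes SLUG, the close relative of SNAIL that also marks neural crest and mammary stem cells. Its counts were 7, 82 and 217, or 0.634 CPM (0.255 to 1.31), 6.41 CPM (5.09 to 7.95) and 12.6 CPM (11.0 to 14.4) in A-, PM- and M-LMSC. The order was thus opposite to that of Snai1, and the A-LMSC level rested on 7 reads. The fold was 10.1 higher in PM-LMSC than in A-LMSC (4.69 to 25.9) and 19.8 higher in M-LMSC than in A-LMSC (9.47 to 49.9). In M-LMSC versus PM-LMSC it was 1.97 (1.52 to 2.57), just short of the 2-fold mark, and the log2 ratio of 0.88 there became 1.10 when scaled by library totals alone and 1.01 in FPKM, past it. Trend-removed ratios were 1.10 in PM-LMSC and 1.18 in M-LMSC versus A-LMSC, with 0.10 in M-LMSC versus PM-LMSC.

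Twist1 (ENSMUSG00000035799, chromosome 12, 33957671 to 33959817) encodes a basic helix-loop-helix factor of mesoderm and neural crest. It had 474, 399 and 274 counts in A-, PM- and M-LMSC, or 43.0 CPM (39.2 to 47.0), 31.2 CPM (28.2 to 34.4) and 15.9 CPM (14.1 to 17.9). It stepped down in the same order as Snai1, by less. The fold was 2.70 lower in M-LMSC than in A-LMSC (2.32 to 3.15). That call ended with library totals alone (log2 ratio -0.85) and in FPKM (-0.83), and the direction turned once the trend was removed (0.31). In PM-LMSC versus A-LMSC the log2 ratio of -0.45 likewise became 1.15. Twist1 has 59.3% GC, where the median ratio of all coding genes was -1.475 in M-LMSC versus A-LMSC, as the plot of ratio against GC content shows.

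Twist2 (ENSMUSG00000007805, chromosome 1, 91801461 to 91848028), the paralogue also called Dermo1, is known from dermal mesenchyme and osteoblast precursors. Its counts were 1779, 440 and 585, or 161 CPM (154 to 169), 34.4 CPM (31.2 to 37.7) and 33.9 CPM (31.2 to 36.8) in A-, PM- and M-LMSC. A-LMSC stood apart and the later libraries overlapped. Twist2 was 4.69-fold lower in PM-LMSC than in A-LMSC (4.22 to 5.22) and 4.75-fold lower in M-LMSC than in A-LMSC (4.32 to 5.23), while M-LMSC versus PM-LMSC gave 0.987-fold (0.871 to 1.12). It was the only factor of the 7 called lower already in PM-LMSC, and the trend-removed ratios stayed past the mark at -1.74 and -1.47, against 0.29 in M-LMSC versus PM-LMSC.

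Promoters are shown for the 3 factors called lower in M-LMSC versus A-LMSC, and for Prrx1, a factor called higher there. With the trend removed, only Twist2 of the 3 stayed called lower, and Prrx1 was called lower too (-1.36). Each run holds the 250 bases before the RefSeq start on GRCm38.p6, written 5′ to 3′ on the gene's strand, and capitals mark CACCTG, the E-box core that SNAIL and ZEB proteins bind, which reads CAGGTG on the other strand.
Snai1 (chr2:167537945-167538194, plus strand): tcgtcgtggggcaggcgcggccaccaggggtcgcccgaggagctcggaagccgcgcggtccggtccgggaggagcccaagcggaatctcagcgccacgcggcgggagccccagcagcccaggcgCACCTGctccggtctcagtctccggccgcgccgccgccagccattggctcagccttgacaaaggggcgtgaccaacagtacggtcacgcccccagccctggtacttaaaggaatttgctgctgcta
Twist1 (chr12:33957421-33957670, plus strand): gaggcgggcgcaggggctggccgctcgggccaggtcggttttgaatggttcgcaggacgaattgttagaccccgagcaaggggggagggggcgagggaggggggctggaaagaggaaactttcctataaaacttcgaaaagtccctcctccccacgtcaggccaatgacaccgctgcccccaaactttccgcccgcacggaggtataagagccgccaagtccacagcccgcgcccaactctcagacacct
Twist2 (chr1:91801211-91801460, plus strand): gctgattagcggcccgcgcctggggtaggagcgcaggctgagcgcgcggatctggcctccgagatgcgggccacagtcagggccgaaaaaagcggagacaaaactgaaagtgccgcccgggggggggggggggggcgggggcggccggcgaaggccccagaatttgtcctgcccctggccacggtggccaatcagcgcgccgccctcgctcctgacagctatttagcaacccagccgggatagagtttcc
Prrx1 (chr1:163313651-163313900, minus strand): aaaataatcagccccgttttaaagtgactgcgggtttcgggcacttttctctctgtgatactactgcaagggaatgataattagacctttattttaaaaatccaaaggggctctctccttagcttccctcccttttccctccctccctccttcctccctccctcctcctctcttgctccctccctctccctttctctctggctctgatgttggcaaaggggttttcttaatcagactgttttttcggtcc
Snai1 held 1 CACCTG, which begins at -126 from the start, and the other 3 windows held none. On either strand, 17.2% of 32851 RefSeq promoter windows of this length held the motif, and 66.2% held any CANNTG, the wider E-box form of which CACCTG is a case. Apart from its CACCTG, Snai1 held no other CANNTG, and Twist1, Twist2 and Prrx1 held none. The windows of Snai1, Twist1 and Twist2 were 70.0%, 62.4% and 68.8% GC, against a median of 52.4% over all windows, and that of Prrx1 was 47.6%. Those of Zeb2, also called higher in M-LMSC versus A-LMSC, were 49.6%, 55.6%, 54.0% and 57.6% GC. RefSeq windows were matched for 6 of the 10 genes, the others being Zeb2 and Vim, with no CACCTG or CAGGTG in either, and Snai2, Zeb1, Cdh1 and Cdh2 were not matched.

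Zeb1 (ENSMUSG00000024238, chromosome 18, 5591860 to 5775467) encodes a zinc finger and homeodomain repressor that acts with CTBP corepressors. Its counts were 19, 115 and 556 in A-, PM- and M-LMSC, or 1.72 CPM (1.04 to 2.69), 8.98 CPM (7.42 to 10.8) and 32.3 CPM (29.6 to 35.1). Every step was upward, with no overlap. The fold was 18.7 higher in M-LMSC than in A-LMSC (11.9 to 31.3) and 3.59 higher in M-LMSC than in PM-LMSC (2.93 to 4.43). In PM-LMSC versus A-LMSC it was 5.22 (3.19 to 8.98), and there the log2 ratio of 1.87 became 0.52 in FPKM, where the added 1 outweighs so low a value, and -0.17 with the trend removed. Trend-removed ratios in M-LMSC were 1.27 against A-LMSC and 1.53 against PM-LMSC. The overlapping gene Gm10125, on the opposite strand, had 11, 9 and 7 counts in A-, PM- and M-LMSC.

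Zeb2 (ENSMUSG00000026872, chromosome 2, 44983632 to 45117395), which encodes the related repressor SIP1, had 43, 74 and 843 counts, or 3.90 CPM (2.82 to 5.25), 5.78 CPM (4.54 to 7.26) and 48.9 CPM (45.7 to 52.3) in A-, PM- and M-LMSC. Its intervals overlapped in A-LMSC and PM-LMSC, and M-LMSC stood apart. The fold was 12.5 higher in M-LMSC than in A-LMSC (9.23 to 17.5) and 8.46 higher in M-LMSC than in PM-LMSC (6.67 to 10.9), which placed its log2 ratio of 2.88 at percentile 98.6 of all measured genes. At 40.6% GC, Zeb2 lies where coding genes had a median ratio of 2.23 in M-LMSC versus A-LMSC. Its trend-removed ratios were 0.48 in M-LMSC versus A-LMSC, under the mark, 1.67 in M-LMSC versus PM-LMSC, and -1.22 in PM-LMSC versus A-LMSC, where the plain ratio was 0.47. The opposite-strand gene Zeb2os had 23, 36 and 39 counts in A-, PM- and M-LMSC, and since the strand setting of the counts is not given in the sources used here, reads of Zeb2 and Zeb2os, or of Zeb1 and Gm10125, cannot be told apart where the genes overlap.

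Prrx1 (ENSMUSG00000026586, chromosome 1, 163245119 to 163313710) encodes a paired-type homeobox factor of limb and craniofacial mesenchyme and of fibroblasts. It had 533, 2182 and 2258 counts, or 48.3 CPM (44.3 to 52.6), 170.45 CPM (163 to 178) and 131 CPM (126 to 137) in A-, PM- and M-LMSC. PM-LMSC was highest and A-LMSC lowest, without overlap. The fold over A-LMSC was 3.53 higher in PM-LMSC (3.21 to 3.89) and 2.71 higher in M-LMSC (2.47 to 2.99), and M-LMSC was 1.30-fold lower than PM-LMSC (1.23 to 1.38). Both directions against A-LMSC turned with the trend removed, to -0.28 in PM-LMSC and -1.36 in M-LMSC, and M-LMSC versus PM-LMSC went to -1.01. With 43.6% GC and a long transcript, Prrx1 lay below the median of coding genes of like GC content in both comparisons of M-LMSC, and above it in PM-LMSC versus A-LMSC, at 1.80 beside 1.46.

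**Figure D2:**
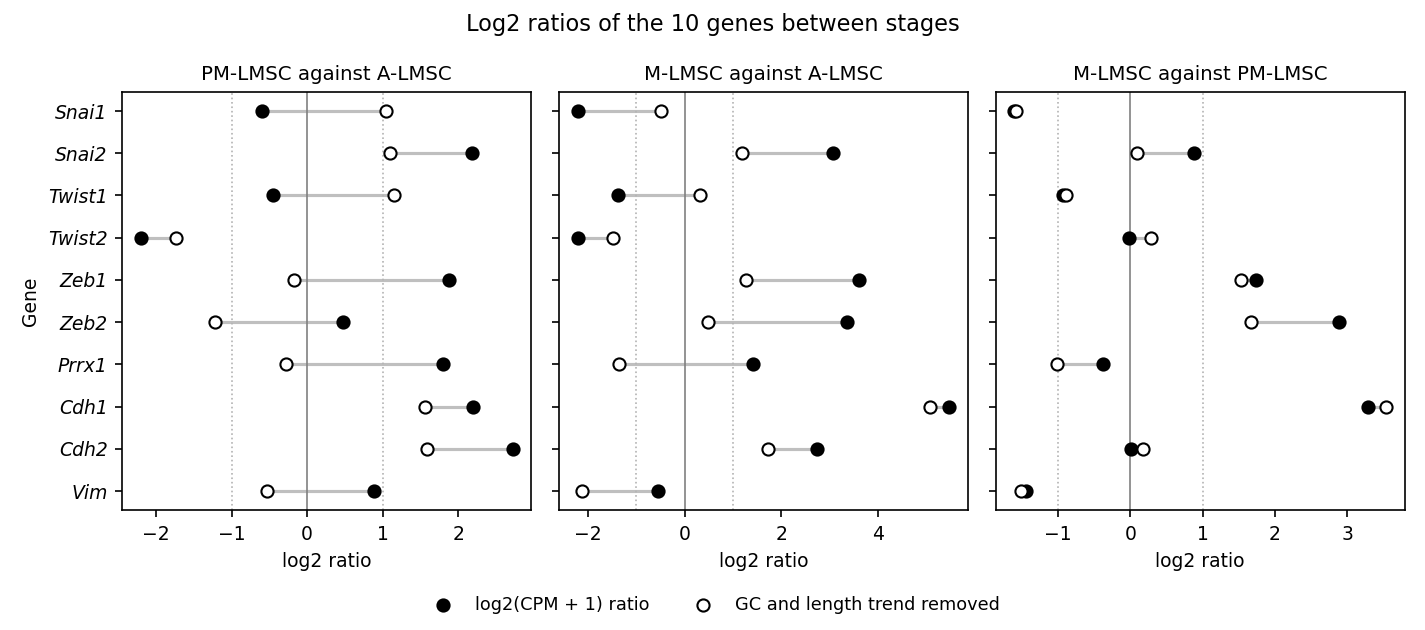
Log2 ratios of log2(CPM + 1) for the 10 genes in PM-LMSC versus A-LMSC, M-LMSC versus A-LMSC and M-LMSC versus PM-LMSC, as filled points, and with the trends with GC content and length removed, as open points; dotted lines mark 2-fold. In M-LMSC versus PM-LMSC the 2 points lie furthest apart for Zeb2 (2.88 and 1.67), Snai2 (0.88 and 0.10) and Prrx1 (-0.38 and -1.01), and in M-LMSC versus A-LMSC nearest for Cdh1 (5.47 and 5.08).

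Cdh1 (ENSMUSG00000000303, chromosome 8, 106603351 to 106670246), E-cadherin itself, showed the largest ratio of the 10 genes in both comparisons of M-LMSC. It had 5, 72 and 1095 counts in A-, PM- and M-LMSC, or 0.453 CPM (0.147 to 1.06), 5.62 CPM (4.40 to 7.08) and 63.5 CPM (59.8 to 67.4). Every step was upward with no overlap. The fold was 140.2 higher in M-LMSC than in A-LMSC (59.9 to 433) and 11.3 higher in M-LMSC than in PM-LMSC (8.89 to 14.5). Its log2 ratios of 5.47 and 3.28 stood at percentiles 99.8 and 99.4 of all genes, and the trend-removed ratios were 5.08 and 3.54. In PM-LMSC versus A-LMSC, the fold of 12.4 (5.08 to 39.4) rested on 5 reads in A-LMSC, and the log2 ratio of 2.19 fell to 0.96 with 5 CPM added in place of 1 and to 0.93 in FPKM, just under the mark. In bulk RNA, a greater share of cells that hold a transcript and more transcript per cell cannot be told apart.

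Epithelial genes stood with Cdh1. Of the 9 simple epithelium markers, 5, 7 and 9 reached 1 CPM in A-, PM- and M-LMSC, and they summed to 19.2, 65.9 and 1119 CPM. All 9 were called higher in M-LMSC than in PM-LMSC, where 17.3% of all measured genes were, and none was at 0 counts in M-LMSC. The 6 lung epithelium markers, among them the surfactant gene Sftpc, summed to 112, 0.703 and 4.12 CPM, highest in A-LMSC, where Cdh1 was lowest. The PM-LMSC sum was Ager alone, with 9 counts, and in M-LMSC only Sftpc reached 1 CPM, with 29 counts. These sums thus lay near the floor, and only 1 of the 6 was measured between M-LMSC and PM-LMSC. The part of epithelial cells in the Cdh1 level was not tested. A wider list of 28 epithelial genes includes Epcam, Krt8, Krt18, Cldn3, Cldn4 and Cldn7 of the simple epithelium markers. Of its 26 measured genes, 22 were called higher and 0 lower in M-LMSC versus A-LMSC, with a median of 2.96. In M-LMSC versus PM-LMSC 22 of 26 were higher and 1 lower, with a median of 2.73. The shares of all genes were 41.0% and 27.7%, and 17.3% and 7.85%. In PM-LMSC versus A-LMSC only 7 of 17 were higher and 1 lower, with a median of 0.94, where 35.0% and 25.0% of all genes were. The share called higher was thus near that of all genes. With the trend removed the counts were 23 and 0, 21 and 0, and 11 and 1 in these comparisons. The shares of all genes were then 18.9% and 18.8%, 10.9% and 8.91%, and 18.9% and 17.1%. The keratin gene Krt8 had 2.08, 20.3 and 291 CPM in A-, PM- and M-LMSC, and Epcam, an epithelial adhesion gene, 0.0906, 3.28 and 51.0 CPM. The tight junction gene Cldn4 had 1.63, 4.22 and 123 CPM, and Dsp, which encodes the desmosomal plaque protein desmoplakin, 0 counts in A-LMSC and then 1.72 and 44.8 CPM. The 4 measured genes of the list not called between M-LMSC and A-LMSC were Llgl2, Krt19, Esrp2 and Grhl1, named after their values were seen.

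Cdh2 (ENSMUSG00000024304, chromosome 18, 16588877 to 16809246), N-cadherin, had 252, 1995 and 2703 counts, or 22.8 CPM (20.1 to 25.8), 156 CPM (149 to 163) and 157 CPM (151 to 163) in A-, PM- and M-LMSC. A-LMSC stood apart and the later libraries overlapped. The fold over A-LMSC was 6.82 higher in PM-LMSC (5.98 to 7.81) and 6.87 higher in M-LMSC (6.03 to 7.84), and M-LMSC over PM-LMSC gave 1.01-fold (0.949 to 1.07). Trend-removed ratios were 1.58, 1.73 and 0.18 in these comparisons. E-cadherin was thus higher in M-LMSC than in PM-LMSC while N-cadherin differed by less than its counting interval, so the library with the most Cdh1 was not one with less Cdh2.

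**Figure D3:**
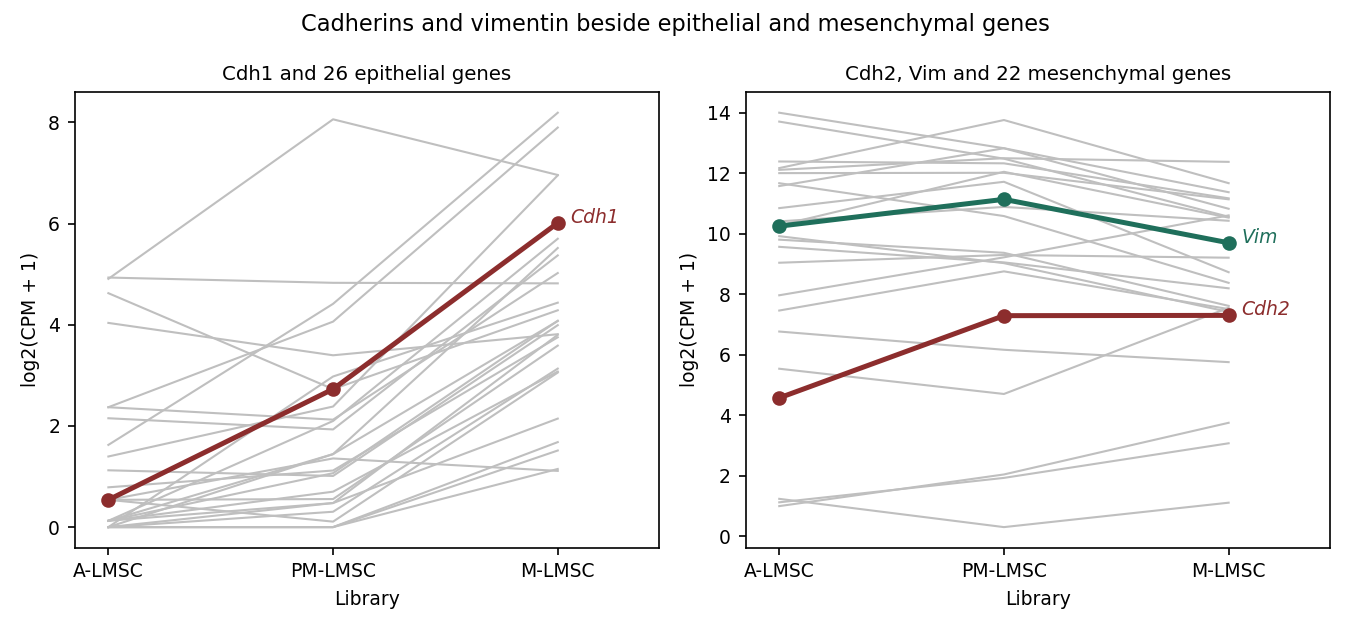
Log2(CPM + 1) in A-, PM- and M-LMSC for Cdh1 with the 26 measured epithelial genes (left) and for Cdh2 and Vim with 22 mesenchymal genes (right), 1 line per gene and 1 library per stage. Most epithelial lines climb with Cdh1 in M-LMSC, while mesenchymal lines run both ways and Vim peaks in PM-LMSC.

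Vim (ENSMUSG00000026728, chromosome 2, 13573927 to 13582826), the intermediate filament of mesenchymal cells, was per length the most abundant of the 10 genes in every library. It had 13440, 28843 and 14331 counts, or 1218 CPM (1198 to 1239), 2253 CPM (2227 to 2279) and 831 CPM (818 to 845) in A-, PM- and M-LMSC. PM-LMSC was highest and M-LMSC lowest. Vim was 2.71-fold lower in M-LMSC than in PM-LMSC (2.66 to 2.77), with a log2 ratio of -1.44 and a trend-removed ratio of -1.51. In PM-LMSC versus A-LMSC it was 1.85-fold higher (1.81 to 1.89), not called, although log2 ratios of 1.20 by library totals alone and 1.19 in FPKM passed the mark and the trend-removed ratio was -0.54. In M-LMSC versus A-LMSC the log2 ratio was -0.55 (-0.59 to -0.52), where the trend-removed ratio was -2.12 and the direction turned in FPKM (0.0036), which were alike at 128 each. The fold against A-LMSC therefore depended on the scaling, and the fold between M-LMSC and PM-LMSC did not cross the mark under any scaling tried.

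Other mesenchymal genes behaved unevenly beside Vim and Cdh2. Of 22, 4 were called higher and 9 lower in M-LMSC versus A-LMSC, beside 41.0% and 27.7% of all genes. The median was -0.35, or 0.12 by library totals alone. In M-LMSC versus PM-LMSC 4 were higher and 11 lower (median -1.02), beside 17.3% and 7.85%. In PM-LMSC versus A-LMSC 6 were higher and 3 lower, beside 35.0% and 25.0%, with a median of 0.13, or -0.098 with upper-quartile scaling. With the trend removed, 0 were higher and 7 lower in M-LMSC versus A-LMSC, beside 18.9% and 18.8% of all genes. In M-LMSC versus PM-LMSC 1 was then higher and 10 lower, beside 10.9% and 8.91%. Col3a1, a fibrillar collagen gene, had 3262, 1536 and 332 CPM in A-, PM- and M-LMSC, and the collagen gene Col1a1 16401, 7267 and 1815 CPM. Fap, which encodes a protease of activated fibroblasts, went the other way with 0.997, 3.12 and 12.5 CPM, as did Lox, which encodes a collagen crosslinking enzyme, with 249, 596 and 1559 CPM. In M-LMSC versus A-LMSC, however, the trend-removed ratios of Fap and Lox were 0.99 and 0.23, under the mark. The 7 fibroblast markers, all of them also counted among the 22, summed to 33955, 15151 and 4191 CPM in A-, PM- and M-LMSC. That was the same order as Snai1 and Twist1, and the part of the markers in those ratios was not tested. Most of that sum was Col1a1 and Col1a2, at 16401 and 13379 CPM in A-LMSC. Of the 7, 5 were called lower in M-LMSC versus A-LMSC, beside 27.7% of all genes. With the trend removed 4 were, Lum among them, beside 18.8%. In the plain ratios Lum was not called, and Dcn, which encodes the proteoglycan decorin, was called higher. Dcn had 45.5, 25.1 and 187 CPM in A-, PM- and M-LMSC, and the trend removal took its ratio to 0.047. Among 11 other intermediate filament genes, Nes (nestin) had 60.0, 966 and 362 CPM in A-, PM- and M-LMSC, peaking where Vim did. Lmna, which encodes the nuclear lamins A and C, had 1702, 840.2 and 447 CPM, and Des (desmin), a muscle filament gene, 1021, 1181 and 192 CPM.

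The balance within pairs of related genes compares counts inside a library and so needs no scaling between libraries. Of the counts of Cdh1 and Cdh2, Cdh1 made up 1.95% in A-LMSC (exact Clopper-Pearson interval 0.635 to 4.48), where PM-LMSC had 3.48% (2.74 to 4.37) and M-LMSC 28.8% (27.4 to 30.3). Per length, as deposited FPKM, the shares were 3.36%, 5.95% and 41.5%. N-cadherin thus remained the larger of the pair in every library. Snai2 made up 0.431% of the counts of Snai2 and Snai1 in A-LMSC (0.173 to 0.886), where PM-LMSC had 6.21% (4.97 to 7.65) and M-LMSC 28.8% (25.6 to 32.2). In FPKM the shares were 0.344%, 5.02% and 24.4%, so Snai1 stayed the larger of the 2 throughout. Twist2 took 79.0% of its pair with Twist1 in A-LMSC (77.2 to 80.6), where PM-LMSC had 52.4% (49.0 to 55.9) and M-LMSC 68.1% (64.9 to 71.2), lowest in PM-LMSC, and in FPKM 61.1%, 31.6% and 47.2%. Zeb2 took 69.4% of its pair with Zeb1 in A-LMSC (56.4 to 80.4), where PM-LMSC had 39.2% (32.2 to 46.5) and M-LMSC 60.3% (57.6 to 62.8), also lowest in PM-LMSC, and the intervals of A-LMSC and M-LMSC overlapped. The FPKM shares of Zeb2 were 52.2%, 23.7% and 42.3%.

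Genes of a pair can still differ in GC content, and the difference of their log2 ratios was therefore also taken with the trend removed. For Cdh1 minus Cdh2 it was 2.75 in M-LMSC versus A-LMSC and 3.28 in M-LMSC versus PM-LMSC, and 3.35 and 3.36 with the trend removed. Snai2 minus Snai1 gave 2.78 in PM-LMSC versus A-LMSC and 5.26 in M-LMSC versus A-LMSC, which became 0.06 and 1.67, while 2.48 in M-LMSC versus PM-LMSC became 1.68. For Zeb2 minus Zeb1, -1.41 in PM-LMSC versus A-LMSC became -1.05, but 1.14 in M-LMSC versus PM-LMSC became 0.14. Twist2 minus Twist1 gave -1.75 and 0.91 in these comparisons, and -2.89 and 1.18 with the trend removed. Transcripts of the SNAIL pair differ most in GC content, at 59.8% for Snai1 and 42.6% for Snai2, and those of the cadherin pair hardly at all, at 50.7% for Cdh1 and 49.5% for Cdh2.

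**Figure D4:**
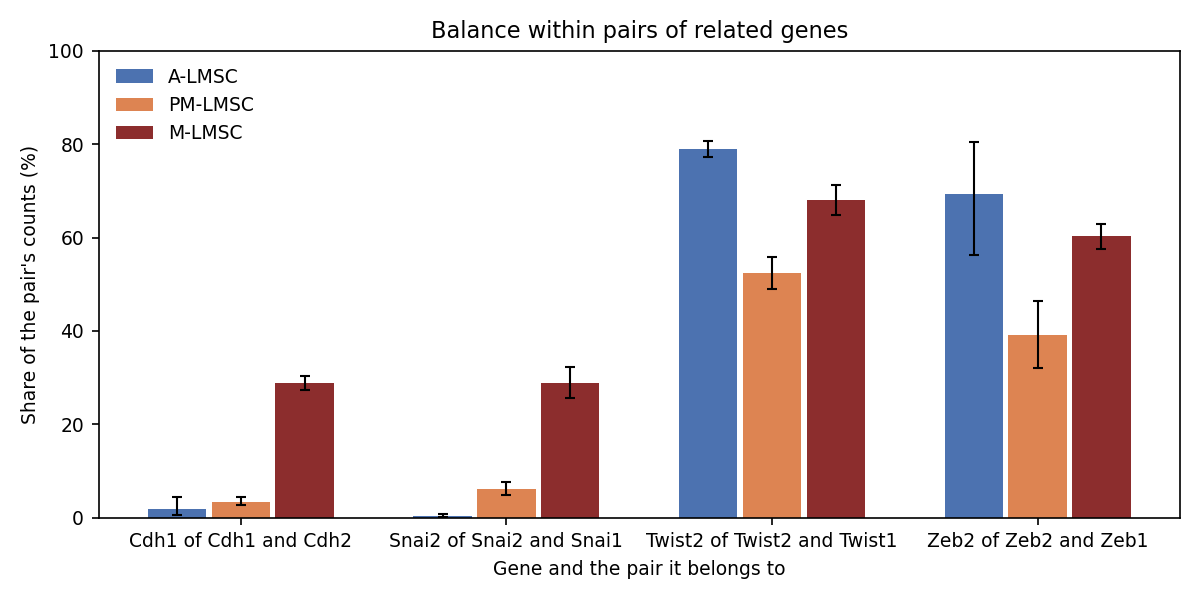
Share in percent of the pair's counts taken by Cdh1, Snai2, Twist2 and Zeb2, each with the paralogue or partner named on the axis, in A-, PM- and M-LMSC; bars are 1 library each and error bars exact 95% binomial intervals. Cdh1 and Snai2 both reached 28.8% in M-LMSC.

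The GC dependence bears on these genes unequally. Cdh1 and Cdh2 lie near the middle of the GC range, and in M-LMSC versus A-LMSC both stood above the upper quartile of coding genes of like GC content, as did Zeb1 and Zeb2. Snai1, Twist2, Vim and Prrx1 lay below the lower quartile there, and Snai2 and Twist1 lay within the quartiles. In M-LMSC versus PM-LMSC, Cdh1, Zeb1 and Zeb2 lay above the quartiles, and Snai1, Twist1, Vim and Prrx1 below. With the trend removed, 5 of the 10 were called higher (Snai1, Snai2, Twist1, Cdh1 and Cdh2) and 2 lower (Twist2 and Zeb2) in PM-LMSC versus A-LMSC, where 18.9% and 17.1% of genes were. Likewise, 4 of the 10 were called higher (Snai2, Zeb1, Cdh1 and Cdh2) and 3 lower (Twist2, Prrx1 and Vim) in M-LMSC versus A-LMSC, where 18.9% and 18.8% of genes were. In M-LMSC versus PM-LMSC, 3 were higher (Zeb1, Zeb2 and Cdh1) and 3 lower (Snai1, Prrx1 and Vim), where 10.9% and 8.91% of genes were. The removal also shifts genes near the floor, such as Snai2, Zeb1 and Cdh1 in A-LMSC.

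**Figure D5:**
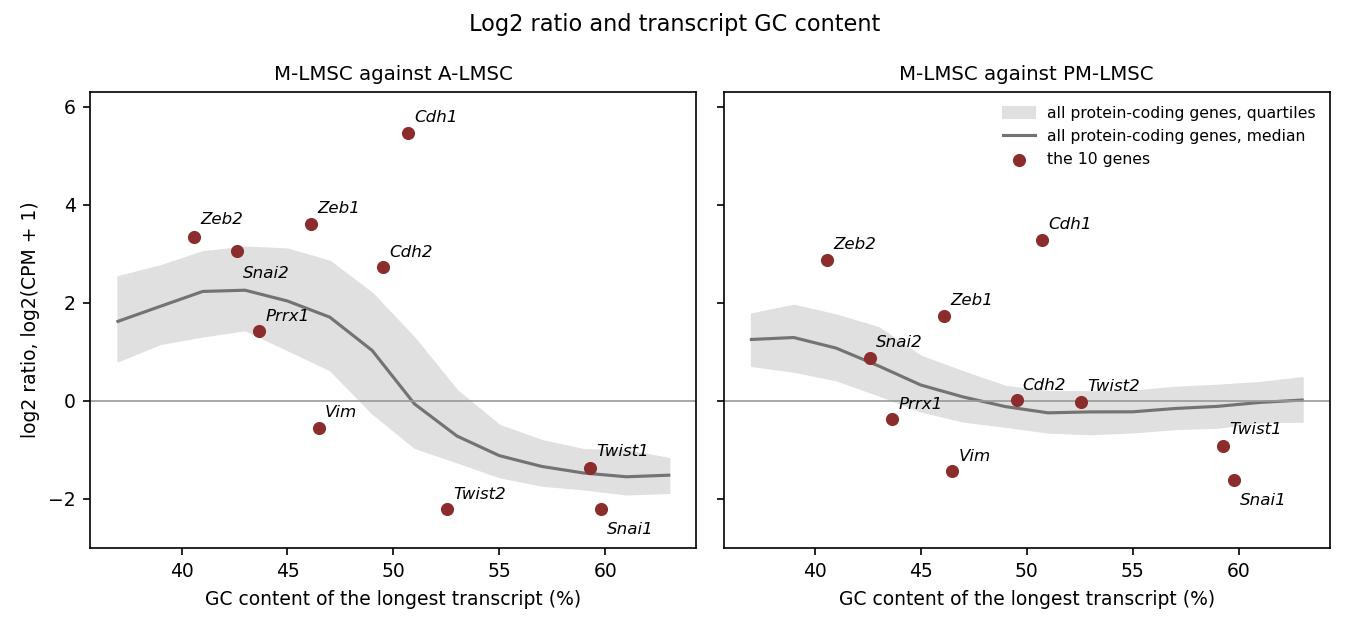
Log2 ratio of log2(CPM + 1) against the GC content in percent of the longest transcript, for M-LMSC versus A-LMSC (left) and M-LMSC versus PM-LMSC (right), with the 10 genes as points and the median and quartiles of all protein-coding genes as a line and band. Cdh1 lies above the band in both panels at 50.7% GC, and Twist1 lies within it in the left panel at 59.3%.

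The levels of the 10 genes were ranked within a library per length, as deposited FPKM. In A-LMSC the order was Vim at 128 FPKM, Snai1 at 74.0, Twist2 at 34.2, Twist1 at 21.8, Prrx1 at 2.48 and Cdh2 at 1.94, followed by Snai2, Zeb2, Zeb1 and Cdh1 between 0.256 and 0.0674, whose neighbours overlapped in their intervals. In PM-LMSC it was Vim at 293 FPKM, Snai1 at 60.6, Twist1 at 19.6, Cdh2 at 16.4, Prrx1 at 10.8, Twist2 at 9.06, Snai2 at 3.21, Cdh1 at 1.04, Zeb1 at 0.554 and Zeb2 at 0.172, and no neighbours overlapped. In M-LMSC it was Vim at 128 FPKM, Snai1 at 23.1, Cdh2 at 19.6, Cdh1 at 13.9, Twist1 at 11.8, Twist2 at 10.6, Prrx1 at 9.86, Snai2 at 7.45, Zeb1 at 2.35 and Zeb2 at 1.72, with neighbours overlapping from Cdh1 to Prrx1. By deposited FPKM, Snai1 thus stayed the most abundant factor in every library although its own level was lowest in M-LMSC, and the factors lay closer together in M-LMSC than in A-LMSC. The deposited FPKM imply lengths that exceed the longest transcript for several genes, 34123 against 9124 bases for Zeb2 and 7810 against 2926 for Vim, and with the longest transcript in their place 12 of the 30 ranks differed, among them Cdh2 and Prrx1 moving above Snai1 in M-LMSC.

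Cadherins act through catenins, which tie their tails to actin, and 5 of 7 catenin genes were measured. Of these, 4 were called higher and 0 lower in M-LMSC versus A-LMSC (median 2.88), beside 41.0% and 27.7% of all genes. In PM-LMSC versus A-LMSC 3 were higher and 0 lower (median 3.26), beside 35.0% and 25.0%. Ctnnb1 (beta-catenin) had 82.6, 798 and 622 CPM in A-, PM- and M-LMSC, Ctnna1 (alpha-catenin) 56.4, 674 and 421 CPM, and Ctnnd1 (p120-catenin) 32.6, 546 and 430 CPM. They followed Cdh2 in lacking a further gain in M-LMSC. Ctnnd2, the delta-catenin known from neurons, had 7.61, 11.1 and 38.6 CPM and was the only catenin called higher in M-LMSC than in PM-LMSC, while Jup, which encodes plakoglobin of desmosomes, had 95.8, 48.1 and 69.7 CPM. Of 21 other cadherin genes, 8 were measured between M-LMSC and A-LMSC, with 5 called higher and 2 lower, beside 41.0% and 27.7% of all genes. With the trend removed 1 was higher and 2 were lower, beside 18.9% and 18.8%. Cdh11, the osteoblast and fibroblast cadherin, had 12.7, 57.2 and 235 CPM in A-, PM- and M-LMSC, so that it was 4.11 higher on the log2 scale in M-LMSC than in A-LMSC and 1.59 with the trend removed. Cdh13, which encodes the membrane-anchored T-cadherin, had 0.0906, 2.03 and 6.85 CPM, with a trend-removed ratio of 0.61 in M-LMSC versus A-LMSC, and Cdh3 (P-cadherin) 13.3, 17.0 and 4.87 CPM.

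TWIST proteins pair with E proteins, which ID proteins hold back, and SNAIL and ZEB proteins recruit corepressors. Of 13 such genes, 7 were called higher and 4 lower in M-LMSC versus A-LMSC (median 1.12), beside 41.0% and 27.7% of all genes. In PM-LMSC versus A-LMSC 7 were higher and 3 lower (median 1.05), beside 35.0% and 25.0%. In M-LMSC versus PM-LMSC 2 were higher and 1 lower (median -0.30), beside 17.3% and 7.85%. With the trend removed, 6 were higher and 3 lower in M-LMSC versus A-LMSC (median 0.22), beside 18.9% and 18.8% of all genes. In M-LMSC versus PM-LMSC 0 were then called in either direction, beside 10.9% and 8.91%. The E protein gene Tcf3 had 226, 69.3 and 49.8 CPM in A-, PM- and M-LMSC, against 2.54, 18.6 and 52.4 CPM for the E protein gene Tcf12 and 8.07, 15.9 and 29.1 CPM for Tcf4. Trend-removed ratios in M-LMSC versus A-LMSC were -0.48 for Tcf3, under the mark, 1.22 for Tcf12 and -1.13 for Tcf4, whose direction turned. Id3 had 1001, 263 and 169 CPM and Id1 178, 143.5 and 66.7 CPM, both lowest in M-LMSC, whereas Id2 had 8.52, 32.5 and 35.7 CPM. Of these, Id3 stayed past the mark in M-LMSC versus A-LMSC with the trend removed (-1.21), and Id1 (-0.21) and Id2 (0.22) did not. Ctbp1 had 320, 135 and 110 CPM, Hdac1 9.97, 60.0 and 47.4 CPM, and the histone demethylase gene Kdm1a 22.0, 73.7 and 49.2 CPM. The trend-removed ratio of Ctbp1 in M-LMSC versus A-LMSC was -0.32, under the mark.

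SNAIL protein is short-lived, and genes linked to its stability were counted as well. The list was not split by whether a product stabilises or degrades SNAIL, so its counts give no direction for SNAIL turnover. Fbxo11 and Gsk3b, given below, act toward degradation and do not stand for the whole list. Of 12 listed symbols 11 were in the table. In M-LMSC versus A-LMSC 7 were called higher and 0 lower (median 2.09), beside 41.0% and 27.7% of all genes. In PM-LMSC versus A-LMSC 8 were higher and 1 lower (median 1.72), beside 35.0% and 25.0%. In M-LMSC versus PM-LMSC 3 were higher and 0 lower (median 0.36), beside 17.3% and 7.85%. With the trend removed the counts were 8 and 2, 5 and 2, and 1 and 0. The shares of all genes were then 18.9% and 18.8%, 18.9% and 17.1%, and 10.9% and 8.91%. The F-box gene Fbxo11, whose product targets SNAIL for degradation, had 0.363, 17.0 and 43.3 CPM in A-, PM- and M-LMSC. Its A-LMSC level rested on 4 counts. The kinase gene Gsk3b, whose product marks SNAIL for degradation, had 9.25, 53.0 and 68.2 CPM. Their trend-removed ratios in M-LMSC versus A-LMSC were 2.79 for Fbxo11 and 0.13 for Gsk3b. Among 12 measured factors otherwise linked to the transition, 5 were called higher and 4 lower in M-LMSC versus A-LMSC (median 0.35). These counts lie near the shares of all genes, 41.0% and 27.7%. In M-LMSC versus PM-LMSC 1 was higher and 6 lower (median -1.06), beside 17.3% and 7.85%. In PM-LMSC versus A-LMSC 11 were measured, with 5 higher and 1 lower (median 0.84), beside 35.0% and 25.0%. With the trend removed the counts were 2 and 3, 0 and 6, and 7 and 0 in these comparisons. The shares of all genes were then 18.9% and 18.8%, 10.9% and 8.91%, and 18.9% and 17.1%. Sox4, an HMG-box factor gene induced by TGF-beta, had 12.7, 116 and 144 CPM in A-, PM- and M-LMSC, and Tbx2, a T-box repressor gene, 47.9, 15.8 and 4.93 CPM. Prrx2, the paralogue of Prrx1, had 51.0, 26.6 and 13.7 CPM and in these levels ran opposite to Prrx1 in A-LMSC and M-LMSC. The trend-removed ratios in M-LMSC versus A-LMSC were 0.0053 for Prrx2 and -1.36 for Prrx1, so this opposition did not remain.

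The genes most like each member were found by the distance between log2(CPM + 1) profiles over the 3 libraries, each centred on its own mean. The candidates were 9472 genes that reached 10 CPM in a library. Genes named only by a Gm number, a Rik symbol or a gene ID were left out. With only 3 points, many genes lie close: between 169 and 965 genes lay within a distance of 0.5 of each of the other 9 members, but only 7 of Cdh1. The nearest to Cdh1 were Krt14, a basal keratin gene, at 0.176, Epcam at 0.230 and Smg1 at 0.305. Krt14 had 0.816, 8.28 and 75.3 CPM in A-, PM- and M-LMSC. Nearest to Cdh2 was Dock1, at 0.0265, to Zeb2 Nbea, at 0.0479, to Snai1 Ccnf, at 0.0274, and to Vim Tspan18, at 0.0327. These distances describe the 3 libraries only.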

How the data were processed

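RNA-seq of 1 library per tumour stage was analysed. TopHat2 2.0.9 and the build mm10 are listed in the processing notes of the submitters. Which program counted reads, on which annotation and strand, is not given in the sources used here. The authors deposited a table of whole-number counts per gene, with FPKM, which the authors scaled per kilobase and per library total. Of 34748 lines, 6 with incomplete values were left out. From the counts, TMM-scaled CPM (edgeR 4.0.16, R 4.3.3) and log2 ratios with 1 CPM added were computed over the whole table. Single counts carry exact Poisson intervals, and ratios and shares exact Clopper-Pearson intervals. PCR duplicates were not marked by molecular identifiers, so these cover counting error only. Further libraries of these stages that the study describes were not analysed here. No test was run, since stages had no replicate among the libraries used.

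Transcript GC content and length came from the longest GENCODE M21 transcript (98.6% of genes), and their trends were fitted by lowess (span 0.3) on protein-coding genes. Alternatives were library totals alone, DESeq2 1.42.0 size factors, upper-quartile scaling, FPKM, 0.1 or 5 CPM added, no minimum or 5 CPM, and the trend removed. The members and the 14 context lists were chosen with earlier results of these data known. Up to 6 genes of a list were named, by the largest M-LMSC to A-LMSC ratio, all measured catenins and helix-loop-helix partners could be named, and so could the 3 nearest profiles of a member. Intervals and trends were computed in Python 3.11.15 (scipy 1.17.1, statsmodels 0.14.6), tables with pandas 2.3.3 and numpy 2.4.6, and figures with matplotlib 3.10.9.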

Additional observations from a re-analysis of the deposited data

How the results depend on the processing

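No paired analysis was possible because each stage had 1 library. With the trend with GC content and length removed, 2 of the 10 genes in place of 1 were lower in PM-LMSC versus A-LMSC, and their median log2 ratio was 0.435 in place of 1.34 there and 0.39 in place of 2.07 in M-LMSC versus A-LMSC. In FPKM the last was 1.47. The other counts of the 10 genes moved by at most 1.5 times under the alternatives, and the other medians shifted by at most the log2 of 1.5. Within that limit, the median of -0.0044 in M-LMSC versus PM-LMSC became 0.14 with the trend with GC content and length removed. Trend removal also turned Zeb1 (-0.17) and Prrx1 (-0.28) in PM-LMSC versus A-LMSC, and Twist1 (0.31) and Prrx1 (-1.36) in M-LMSC versus A-LMSC. In M-LMSC versus A-LMSC it turned the medians of other cadherins (-0.093) and endothelium markers (-0.25). In FPKM, the other cadherins had -0.60 there and other intermediate filaments -0.10, and intermediate filaments had -0.39 with a minimum of 5 CPM, since fewer genes were then measured. No called ratio of the 10 genes turned under another scaling, FPKM or added value. Of ratios not called, the trend turned those of Snai1 (1.04), Twist1 (1.15), Zeb2 (-1.22) and Vim (-0.54) in PM-LMSC versus A-LMSC and of Twist2 (0.29) in M-LMSC versus PM-LMSC. Library totals alone shifted the median ratio of all genes by 0.27, 0.49 and 0.23 in PM-LMSC versus A-LMSC, M-LMSC versus A-LMSC and M-LMSC versus PM-LMSC, and removing the trend shifted the first 2 by -0.23 and -0.35. Depth limits Cdh1, Snai2 and Zeb1 in A-LMSC, with 5, 7 and 19 counts. Tumour stage, age, culture and library cannot be told apart.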
